A study of Caenorhabditis elegans with 20 samples.

Results

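The yolk protein genes of the nematode Caenorhabditis elegans, vit-1 to vit-6, were followed here through spotted arrays of messenger RNA pulled down with AIN-1 or AIN-2, the worm's GW182-family proteins. They were found by their symbols in the platform's probe table: 6 of 16378 genes, with 11 of the 17461 probes that name 1 gene (23232 spotted probes in all). vit-1, vit-2, vit-5 and vit-6 have 1 probe each, vit-3 has 3 and vit-4 has 4, and each probe was kept apart. In the RefSeq table of assembly WBcel235, vit-1 (K09F5.2), vit-2 (C42D8.2), vit-3 (F59D8.1), vit-4 (F59D8.2) and vit-5 (C04F6.1) lie on chromosome X and vit-6 (K07H8.6) on chromosome IV. vit-3 was found there by its symbol and the other 5 by gene ID.

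Vitellogenins are large lipid-carrying glycoproteins. In adult hermaphrodites the intestine makes them in great amounts and secretes them into the body cavity, and growing oocytes take them up through the receptor RME-2. vit-1 to vit-5 are close relatives that encode the YP170 yolk proteins, whereas the product of vit-6 is cleaved into YP115 and YP88. AIN-1 and AIN-2 join Argonaute proteins in the complex through which microRNAs silence messenger RNAs, so RNA that comes down with them is RNA held by that complex or brought along with it.

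The 20 samples form 7 groups, all of mixed-stage worms. From the wild-type strain N2 there were 3 immunoprecipitates (IPs) with an antibody against AIN-1, 3 with preimmune serum and 2 total RNA samples. From a strain carrying AIN-2::GFP as a single copy integrated line (line A) there were 3 GFP IPs, called AIN-2::GFP IP, and 3 total RNA samples. From an injection line carrying GFP alone under the AIN-2 promoter there were 3 GFP IPs, called GFP IP, and 3 total RNA samples. Each strain is thus 1 line, and a worm population of mixed stage holds larvae and adults in a proportion that the labels do not give. Cy3 and Cy5 labels alternated within the groups. The study's text calls the replicates independent biological ones.

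The deposited values are background-subtracted spot brightness divided by the mean of the sample, so a value of 1 is an average spot. The mean spot of a sample lay between 241 and 907 scanner units in the total RNA samples, the AIN-1 IPs and the AIN-2::GFP IPs. It was 9, 40 and 47 units in the preimmune IPs and 370, 46 and 12 in the GFP IPs, so the control IPs were far dimmer and their low values are coarse. The cdc-42 probe was bright in the AIN-1 IPs, the preimmune IPs and replicate 1 of both GFP pull-downs (log2 level 3.37 to 4.06) and at or near the floor in all other samples, so 8 samples stand apart from the other 12. What sets them apart was not tested, and this split cannot be told apart from the difference between AIN-1 IP and N2 total RNA. Some fits below take this cdc-42 split as a covariate, though no label names it as a batch. Brightness depends on the spotted sequence as well as on the amount of RNA, so a rank among spots describes brightness and not the amount of RNA of 1 gene against another.

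Yolk protein probes were among the brightest spots of the whole array. In total RNA, the vit-3 probe 13188 ranked 1 and 4 from the top in the N2 samples, 2, 1 and 11 in the AIN-2::GFP strain, and 1, 1 and 3 in the promoter GFP strain. The vit-5 probe 22840 ranked 2 and 2 in N2, 12, 3 and 15 in the AIN-2::GFP strain, and 4, 2 and 1 in the promoter GFP strain. The vit-4 probe 19335 ranked 3 and 3, then 10, 2 and 23, then 5, 3 and 4 in the same samples. Together the 11 probes took 0.96% to 2.38% of the summed signal of a total RNA sample, and 4 to 6 of them were among the brightest 100 spots. In the IPs their share ran from 0.199% in preimmune replicate 1 to 2.55% in AIN-2::GFP IP replicate 2. The brightest spot of any sample read 62628 scanner units and the files carry no saturation flag, so whether these probes were compressed at the top was not tested.

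Probes of 1 gene did not read alike. For vit-3, probe 9316 was above the background limit in only 1 of 20 samples (N2 replicate 2), while probes 11252 and 13188 were above it in all. For vit-4, probe 19236 was above the limit in none and probe 15463 in only 1 (AIN-1 IP replicate 1), while probe 19335 was above it in all. The limit was the median plus 2 median absolute deviations of 1276 chemoreceptor probes in each sample. Probes 9316 and 19236 fell below the filter on mean signal, which left 9 of the 11 probes among the 12222 that were tested. vit-1 to vit-5 are close in sequence and vit-3 and vit-4 are neighbours in the RefSeq table, so RNA of one gene may bind the probe of another, and their signals cannot be told apart here.

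**Figure D1:**
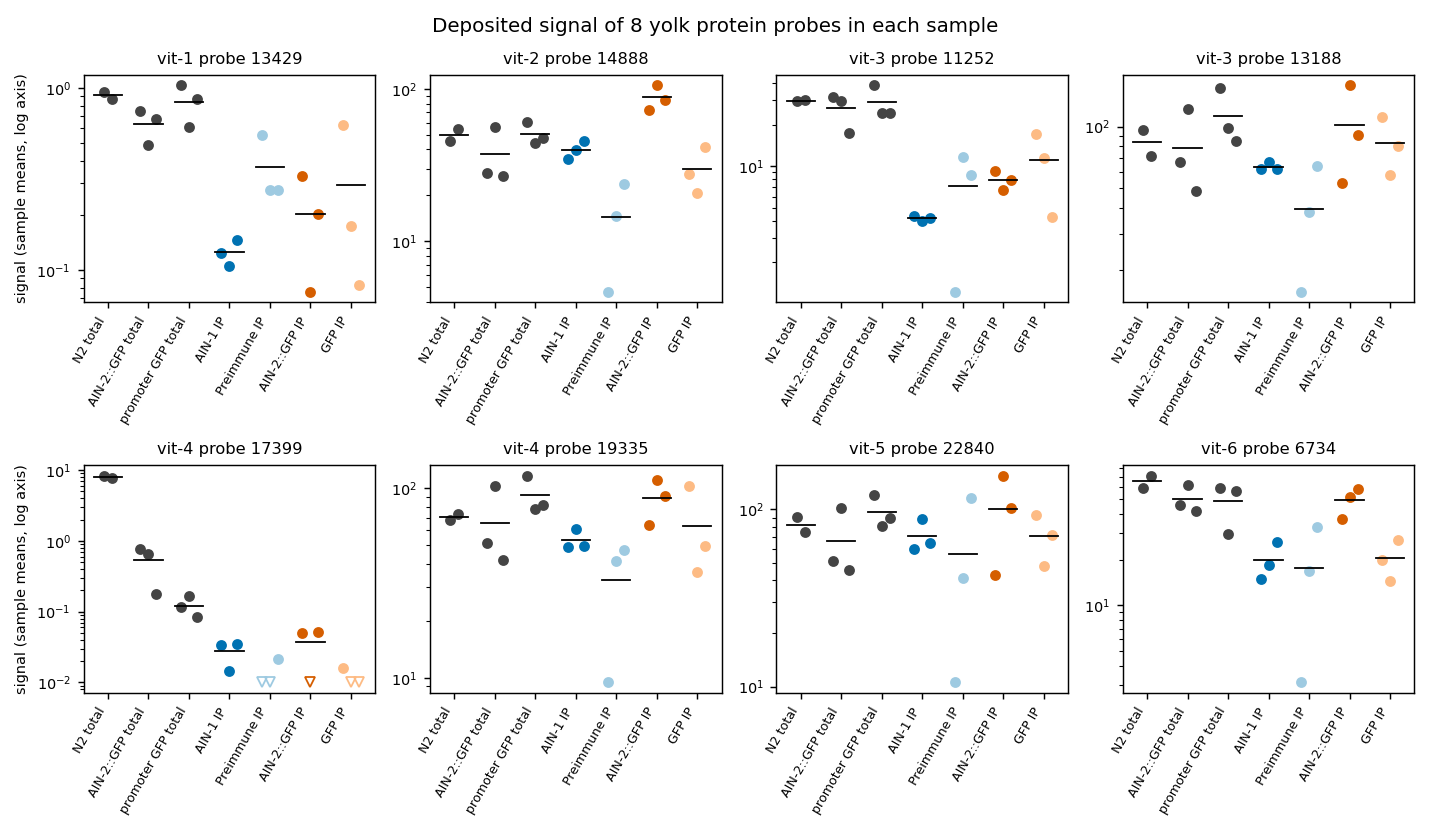
Deposited signal (in sample means, log axis, a scale of its own in each panel) of 8 yolk protein probes in each of the 20 samples: points are samples, lines are group means, and open triangles stand for values under 0.01. The 3 AIN-2::GFP IPs sit above every other sample for vit-2, and the vit-4 probe 17399 is high in the 2 N2 total RNA samples alone.

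vit-2 was the yolk protein gene that stood out in the AIN-2::GFP IP. Its probe 14888 read 72.6, 106 and 84.6 sample means in the 3 AIN-2::GFP IPs, against 28.1, 56.5 and 26.7 in total RNA of the same strain. It read 27.8, 20.7 and 41.2 in the GFP IPs, 60.5, 44.3 and 47.3 in total RNA of that strain, 45.2 and 54.7 in N2 total RNA, 34.5, 39.7 and 45.5 in the AIN-1 IPs, and 4.67, 14.7 and 23.8 in the preimmune IPs. All 3 AIN-2::GFP IPs thus lay above all 17 other samples. By rank, which needs no scaling, the vit-2 probe was spot 1, 4 and 9 in the AIN-2::GFP IPs and 114, 24 and 114 in total RNA of that strain.

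After quantile normalization, vit-2 exceeded its level in the strain's total RNA by 2.47 ± 0.52 (log2, SE), a fold of 5.53 at an adjusted p of 0.0126 (limma). It was 1 of 2 yolk protein probes past the threshold of 0.05 in that comparison, where 5.51% of all probes tested passed (2.79% higher and 2.72% lower). The IP and total RNA ranges of normalized values did not overlap for 5 of the 9 probes, against 47% of all probes tested. Against the GFP IP it was higher by 2.94 ± 0.53 (adjusted p = 0.00641), where 4.24% of all probes passed (2.97% higher and 1.27% lower). It was the only one of the 9 probes to pass in this fit, which does not pair samples by replicate number. The ranges of both pull-downs did not overlap for 3 of the 9, against 25.3% of all probes. The size of both differences depends on the scaling. Quantile normalization gives the brightest spot of every sample a value of 497 sample means, whereas the median sample's brightest spot was deposited at 101, since a few control IP spots reach 3730. At rank 50 both scales are close (47.9 and 44.4). With the sample-mean scaling of the deposited values, vit-2 was higher by 1.31 against total RNA (a fold of 2.48, adjusted p = 0.178) and by 1.70 against the GFP IP (adjusted p = 0.128), neither past the threshold. Nor did it pass with cyclic loess (0.97, adjusted p = 0.151, and 1.16, adjusted p = 0.109) or with a median quantile target (1.16, adjusted p = 0.138, and 1.57, adjusted p = 0.0555). With the 6 control IPs left out of normalization and fit, the difference from total RNA was 1.09 ± 0.26 (a fold of 2.13, adjusted p = 0.00917).

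vit-2 did not pass in the GFP IP, where its log2 difference from total RNA of that strain was -0.85 ± 0.52 (adjusted p = 0.585). The difference between both enrichments, AIN-2::GFP over its strain minus GFP over its strain, was 3.32 ± 0.74 and not past the threshold (adjusted p = 0.124). By limma none of the 9 probes passed in that test, where 0.0245% of all probes passed after adjustment (0.00818% higher and 0.0164% lower). An unadjusted p under 0.05 was found for 3 of the 9 (vit-2, the vit-4 probe 19335 and vit-5). The share of all probes at an unadjusted p under 0.05 was not counted, here or below. With replicate number as a random block the difference between both enrichments of vit-2 passed (adjusted p = 0.0341), when 0.81% of all probes did. So did the vit-4 probe 19335 (adjusted p = 0.0239) and the vit-6 probe (adjusted p = 0.0438) in the direct comparison of AIN-2::GFP IP with GFP IP, where the block raised the share of all probes called to 8.49%. The block kept the call of vit-2 over total RNA (adjusted p = 0.0154), where 5.83% of all probes passed. That call was lost without AIN-2::GFP IP replicate 1 or without total RNA replicate 1 or 3 of that strain (adjusted p up to 0.0703). Replicate 1 of the AIN-2::GFP IP and of the GFP IP belong to the 8 samples with a bright cdc-42 probe, and vit-2 was at 72.6 and 27.8 sample means in these, while among the other samples replicates 2 and 3 were at 106 and 84.6 against 20.7 and 41.2.

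**Figure D2:**
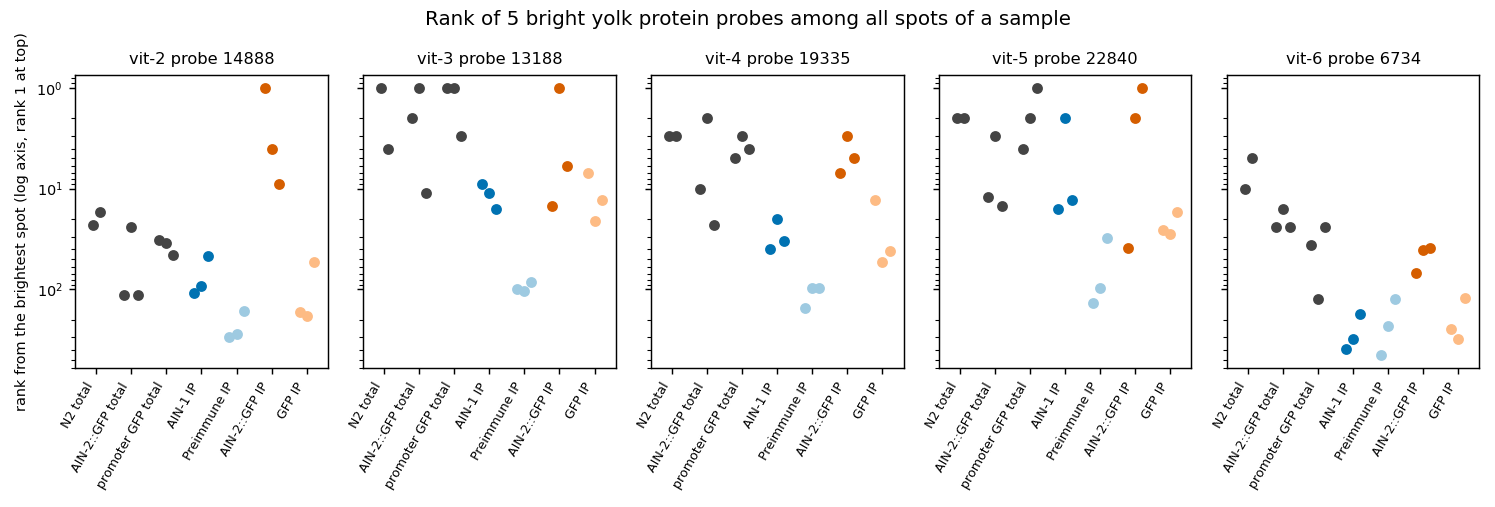
Rank from the brightest spot (log axis, rank 1 at the top) of 5 yolk protein probes among all spots of each sample, with 1 point a sample. The vit-2 probe ranks 1, 4 and 9 in the AIN-2::GFP IPs and 17 or lower in every other sample, and the vit-6 probe ranks 5 and 10 in N2 total RNA but 175 to 395 in the AIN-1 IPs.

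Over total RNA of the same strain, the other bright YP170 probes did not follow vit-2 in the AIN-2::GFP IP. The vit-3 probe 13188 read 52.8, 160 and 91.3 sample means there against 66.8, 122 and 48.3 in total RNA, a log2 difference of -0.50 ± 0.67 (adjusted p = 0.727). The vit-4 probe 19335 read 64.4, 111 and 91.6 against 51.6, 103 and 42, a difference of 0.42 ± 0.47 (adjusted p = 0.672). The vit-5 probe read 42.8, 155 and 102 against 51.3, 102 and 45.6, a difference of 0.76 ± 0.69 (adjusted p = 0.589). For all 3 probes the IP and total RNA ranges overlapped. Against the GFP IP they lay higher without passing (limma). The differences were 1.11 ± 0.68 (vit-3, adjusted p = 0.424), 1.64 ± 0.48 (vit-4, adjusted p = 0.0709) and 1.86 ± 0.71 (vit-5, adjusted p = 0.169). The differences between both enrichments were 1.61 ± 0.94, 2.14 ± 0.67 and 3.02 ± 0.98 in that order (adjusted p = 0.77, 0.29 and 0.318). Whether vit-2 differed from these probes was not tested.

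The vit-3 probe 11252 went the other way. It read 9.27, 6.74 and 7.88 sample means in the AIN-2::GFP IPs against 31.9, 29.6 and 17.4 in total RNA, so the groups did not overlap, and it lay lower by -1.90 ± 0.56 on the log2 scale, which missed the threshold (adjusted p = 0.0585). It passed with the control IPs left out (-1.78, adjusted p = 0.000981), when 36% of all probes passed. In the same setting vit-1, at 0.328, 0.076 and 0.203 sample means in the IPs against 0.745, 0.490 and 0.678 in total RNA, was also past the threshold (-1.41, adjusted p = 0.0195), but not with all samples (-1.31 ± 0.82, adjusted p = 0.404).

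The vit-4 probe 17399 fell in the AIN-2::GFP IP. It read 0.764, 0.646 and 0.177 sample means in total RNA and 0.0508, 0.00912 and 0.0523 in the IPs, where it was not above the background limit in any sample. Total RNA was at least 4.24-fold over the IP (adjusted p = 0.0052), and this call held in all 18 alternatives run. vit-6, at 36.8, 51.7 and 58.6 sample means in the IPs against 45.7, 62.1 and 41.8, lay at -0.50 ± 0.46 (adjusted p = 0.59), with deposited ranges that overlapped.

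Against N2 total RNA, no yolk protein probe rose with AIN-1 and 4 fell, where 11.8% of all probes tested passed, 6.1% higher and 5.65% lower. They were vit-6, the vit-3 probe 11252 and the vit-4 probes 17399 and 19335. Each of these probes also fell with preimmune serum against the same N2 samples, as given below. All 3 AIN-1 IPs were compared with only 2 total RNA samples, so each of those weighs heavily.

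vit-6 read 14.9, 18.5 and 26.3 sample means in the AIN-1 IPs against 59.5 and 71.3 in N2 total RNA. The groups stood apart. Ranges of normalized values did not overlap for 8 of the 9 yolk protein probes, against 65.5% of all probes tested. vit-6 fell by 2.91 ± 0.51 on the log2 scale, 7.5-fold lower (adjusted p = 0.00247). It fell by 1.93 ± 0.31 with the control IPs left out (3.82-fold lower, adjusted p = 0.000831), when 42.7% of all probes passed. With sample-mean scaling it was at -1.71 (adjusted p = 0.126), where the median of all probes moved to -1.02 from 0.11. Without N2 replicate 2 its adjusted p was 0.0555.

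The vit-3 probe 11252 read 4.33, 4.0 and 4.20 sample means in the AIN-1 IPs against 29.6 and 30.1 in N2 total RNA. The replicates of each group were nearly identical and the gap between the groups was wide. The probe fell by 3.24 ± 0.63, 9.47-fold lower (adjusted p = 0.0042), and by 2.89 with sample-mean scaling (adjusted p = 0.0228). The call was lost without either N2 replicate, with an adjusted p of up to 0.0614.

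The vit-4 probe 17399 read 8.37 and 7.63 sample means in N2 total RNA and 0.0342, 0.0143 and 0.0347 in the AIN-1 IPs, not above the background limit in any of those. N2 total RNA was at least 96.4-fold over the AIN-1 IP (adjusted p = 5.41e-05), a call that held in all 18 alternatives. The vit-4 probe 19335 read 49, 61.0 and 49.5 against 67.7 and 73.6, lower by -1.86 ± 0.53 after quantile normalization (adjusted p = 0.0336). Its size depends on the scaling of the top ranks: it was -0.36 with sample-mean scaling (adjusted p = 0.751), -0.65 with the control IPs left out (adjusted p = 0.0422), and it was lost when any 1 of the 5 samples was left out (adjusted p from 0.07 to 0.286).

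The remaining probes did not pass in the AIN-1 IP. vit-2 was at -0.83 ± 0.59 (adjusted p = 0.409) and its deposited ranges overlapped, since the highest AIN-1 IP (45.5) exceeded the lower N2 sample (45.2). vit-1 read 0.123, 0.105 and 0.147 sample means against 0.956 and 0.873, without overlap, at -1.71 ± 0.92 (adjusted p = 0.257), and it passed at -1.93 with the control IPs left out (adjusted p = 0.00611) and at -2.91 with sample-mean scaling (adjusted p = 0.0171). The vit-3 probe 13188 read 62.1, 67.0 and 62 against 95.8 and 72.1, at -1.67 ± 0.75 (adjusted p = 0.165). The vit-5 probe read 59.7, 88.1 and 64.8 against 90.3 and 74.2, at -1.15 ± 0.78 (adjusted p = 0.384). The vit-4 probe 15463, at 0.0452, 0.0254 and 0.0285 sample means in the AIN-1 IPs, was above the background limit in the first of them and in neither N2 sample. The other AIN-1 IPs were below that limit too, so no fold over N2 is given. By limma the probe did not pass with all samples (adjusted p = 0.217). It passed with the control IPs left out (adjusted p = 0.0201) and in a fit of only the groups compared (adjusted p = 0.0315).

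**Figure D3:**
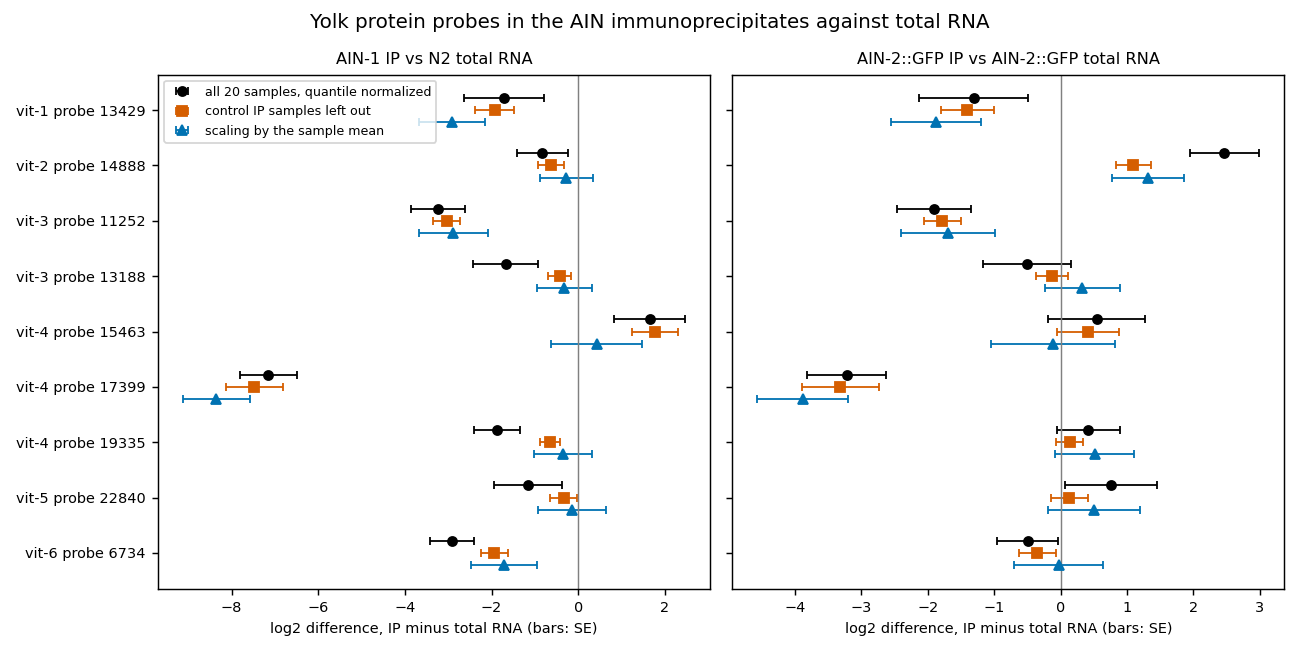
Log2 difference of each of the 9 tested yolk protein probes between IP and total RNA, with bars of 1 SE, for the AIN-1 IP (left) and the AIN-2::GFP IP (right), each under 3 scalings. vit-2 lies above 0 under all 3 in the AIN-2::GFP IP (2.47, 1.09 and 1.31) and below 0 under all 3 in the AIN-1 IP, and the vit-3 probe 11252 and the vit-4 probe 17399 lie below 0 throughout.

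The preimmune IP was compared with total RNA as well. Of the 9 tested probes, 7 were lower by the fit across all samples in the preimmune IP than in the same N2 total RNA samples, where 13.1% of all probes tested passed, 9.17% lower and 3.89% higher. Ranges of normalized values did not overlap for 7 of the 9, against 36.9% of all probes. For vit-5 the deposited values did overlap, since preimmune replicate 3 read 116 against 90.3 and 74.2 in N2 total RNA. vit-6 was at -2.88 ± 0.51 (adjusted p = 0.00271) and vit-2 at -1.92 ± 0.59 (adjusted p = 0.0427). These samples are the dimmest of the series, and the comparison shares its N2 samples with that of the AIN-1 IP. With sample-mean scaling 4 probes passed, with cyclic loess 1, with the cdc-42 split as a covariate 3, without either N2 sample 3, and in a fit of only the groups compared 0.

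Set directly against the preimmune IP, the AIN-1 IP differed in no yolk protein probe by limma's adjusted p, and 4 of 9 had an unadjusted p under 0.05, where 11.8% of all probes passed after adjustment (9.44% higher and 2.36% lower). Ranges after normalization did not overlap for 5 of the 9, against 29.8% of all probes. The vit-5 probe was nearest, at 59.7, 88.1 and 64.8 sample means in the AIN-1 IP against 10.6, 40.9 and 116 in the preimmune IP. The deposited ranges overlapped through preimmune replicate 3. The difference was 2.00 ± 0.71 (adjusted p = 0.078), and with replicate number as a random block it passed (adjusted p = 0.0318), when 20% of all probes did. With cyclic loess its difference turned to -0.80. vit-6 was at -0.03 ± 0.46 (adjusted p = 0.978) and vit-2 at 1.09 ± 0.53 (adjusted p = 0.192). With sample-mean scaling vit-2 was the probe that passed (1.86, adjusted p = 0.0357).

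GFP alone gave no call among the yolk protein probes over its own total RNA (limma), where 0.0245% of all probes passed after adjustment (0.00818% higher and 0.0164% lower). At an unadjusted p under 0.05 there were 7 of 9, a looser threshold than that of this share. Ranges of normalized values did not overlap for 6 of the 9, against 17.3% of all probes. The 9 differences had a median of -1.73, against -0.22 over all probes tested. The vit-4 probe 17399 read 0.115, 0.166 and 0.083 sample means in total RNA and was not above the background limit in any GFP IP. vit-1 was above it in GFP IP replicate 1 and not in replicates 2 and 3.

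The AIN-2::GFP enrichment was set against the AIN-1 enrichment, each over its own strain, after the values of vit-2 had been seen. No yolk protein probe differed with all samples (limma, 4 of 9 at an unadjusted p under 0.05), where 0.00818% of all probes passed after adjustment. vit-2 was at 3.30 ± 0.79 (adjusted p = 0.27). With the control IPs left out, vit-2 differed by 1.71 ± 0.40 (adjusted p = 0.0436), where 4.13% of all probes passed. The vit-4 probe 17399 passed there too, but it was not above the background limit in either IP, so no size is given, and its levels in total RNA of the strains differed.

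Ratios between yolk protein probes within a sample need no scaling. The signal of vit-2 over that of vit-6 was 2.32, 2.15 and 1.73 in the AIN-1 IPs and 1.98, 2.05 and 1.44 in the AIN-2::GFP IPs. It was 0.760 and 0.767 in N2 total RNA, 0.616, 0.911 and 0.639 in AIN-2::GFP total RNA, and 1.03, 1.51 and 0.833 in promoter GFP total RNA. In both AIN pull-downs vit-2 was thus high relative to vit-6, with no overlap with total RNA of the same strain. The control IPs gave 1.5, 0.880 and 0.724 with preimmune serum and 1.40, 1.43 and 1.54 with GFP, so the GFP IPs were high as well and overlapped the range of the AIN-2::GFP IPs. For vit-2 over the vit-5 probe, the AIN-1 IPs overlapped N2 total RNA (0.451 to 0.703 against 0.501 and 0.737). They also overlapped over the vit-4 probe 19335 (0.651 to 0.921 against 0.668 and 0.743) and the vit-3 probe 13188 (0.557 to 0.735 against 0.472 and 0.758). The AIN-2::GFP IPs lay above total RNA of their strain in these ratios (lowest 0.682, 0.924 and 0.662, against up to 0.586, 0.636 and 0.552).

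Both vit-3 probes that gave signal also parted between IP and total RNA. The ratio of probe 11252 to probe 13188 was 0.309 and 0.417 in N2 total RNA, 0.478, 0.244 and 0.361 in AIN-2::GFP total RNA, and 0.251, 0.245 and 0.287 in promoter GFP total RNA. It was 0.0698, 0.0597 and 0.0677 in the AIN-1 IPs, 0.176, 0.0421 and 0.0863 in the AIN-2::GFP IPs, 0.0786, 0.306 and 0.134 in the preimmune IPs, and 0.155, 0.199 and 0.053 in the GFP IPs. In 11 of 12 IPs, controls included, the ratio was below every total RNA sample, with preimmune replicate 2 as the exception. These ratios are given as a description, with no test.

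**Figure D4:**
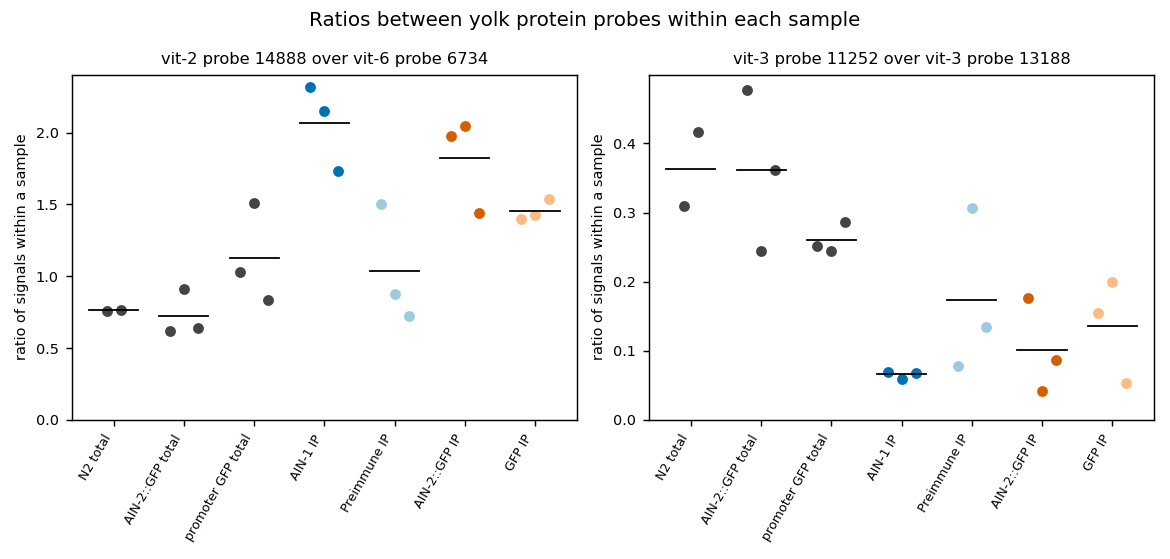
Ratio of the vit-2 signal to the vit-6 signal (left) and of the vit-3 probe 11252 to the vit-3 probe 13188 (right) within each sample, with points for samples and lines for group means. The AIN-1 IPs reach 1.73 to 2.32 on the left against 0.760 and 0.767 in N2 total RNA, and 0.0597 to 0.0698 on the right against 0.309 and 0.417.

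Total RNA of the 3 strains differed in 1 yolk protein probe. The vit-4 probe 17399, at 8.37 and 7.63 sample means in N2, was far above its levels in the AIN-2::GFP strain (0.764, 0.646 and 0.177) and the promoter GFP strain (0.115, 0.166 and 0.083), and N2 did not overlap the others. It was higher in N2 than in both transgenic strains by 5.13 ± 0.59, a fold of 34.9 (adjusted p = 0.000752), where 1.04% of all probes passed (0.655% higher and 0.385% lower), and the call held in all 20 alternatives. The vit-4 probe 19335, at 67.7 and 73.6 in N2 against 42 to 117 in the transgenic samples, did not pass (0.53 ± 0.47, adjusted p = 0.746), so the probes of this gene disagree. vit-6 was at 1.20 ± 0.46 (adjusted p = 0.251). Between both transgenic strains no yolk protein probe passed (limma, 1 of 9 at an unadjusted p under 0.05), where 0.00818% of all probes did after adjustment. Ranges of the normalized values overlapped for all 9, and did not for 8.76% of all probes.

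The study's own rule for associated messages ranks each gene's ratio of IP to total RNA within an IP sample, as a percentile among all genes. By that rule vit-2 was associated with both proteins and was the only yolk protein gene that was, where the rule took 14.4% of all gene probes for AIN-1 and 9.28% for AIN-2. Its percentile ranks were 62.4, 68.3 and 65.3 in the AIN-1 IPs (mean 65.3 ± 2.95, SD, n = 3) and 82.4, 92.5 and 89.3 in the AIN-2::GFP IPs (mean 88.1 ± 5.20, SD, n = 3), against a mean of 50 over all genes. The control ranks were 53.8, 28.8 and 59.6 with preimmune serum and 37.7, 15.1 and 53.1 with GFP. The methods' t-test, which has 3 values and is one-sided, gave an unadjusted 0.00609 and 0.00307, or 0.0326 and 0.0401 after Benjamini-Hochberg adjustment. By mean rank alone vit-2 did not stand apart from the other bright YP170 probes in the AIN-1 IPs. There the vit-5 probe stood at 66.86, the vit-3 probe 13188 at 63.99 and the vit-4 probe 19335 at 63.52. The same test gave them an unadjusted 0.031, 0.0162 and 0.0316, short of the rule's 0.01. At a rank p under 0.05 the rule took them for AIN-1 too. On quantile-normalized values vit-2 was no longer associated with AIN-1, with a mean rank of 35.4 ± 6.10 there (unadjusted p = 0.973 by the methods' t-test, n = 3), and stayed associated with AIN-2 (92.5 ± 5.85, unadjusted p = 0.00313 by the same test, n = 3). The rule ranks genes against each other, and the fit tests each gene against total RNA. Under mean scaling the median probe stood at -1.02 in the AIN-1 comparison and vit-2 at -0.27 (adjusted p = 0.798).

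The dim vit-4 probe 15463 also ranked high in the AIN-1 IPs, at 84.0, 73.9 and 70.8 (mean 76.3 ± 6.91, SD, n = 3). The methods' t-test gave it an unadjusted 0.0112, short of the rule's 0.01, and 0.0496 after Benjamini-Hochberg adjustment. By adjusted rank p alone, 2 yolk protein probes passed for AIN-1 (this one and vit-2), beside 3596 among all 17461 gene probes. That count leaves out the rule's other criteria: at a rank p under 0.05 the rule still did not take probe 15463. This probe was above the background limit in AIN-1 IP replicate 1 and in no other of the 20 samples.

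At the other end of that ranking, the vit-3 probe 11252 stood at mean percentile ranks of 21 ± 3.15 in the AIN-1 IPs and 26.2 ± 7.90 in the AIN-2::GFP IPs (SD, n = 3 each). vit-1 stood at 20.5 ± 0.80 and 27.2 ± 6.12, and the vit-4 probe 17399 at 6.19 ± 1.12 and 10.6 ± 8.12. vit-6 was at 38.2 ± 5.51 in the AIN-1 IPs and 62.6 ± 13.6 in the AIN-2::GFP IPs, below the middle in the first and above it in the second, a difference that has no test here beyond the enrichment comparison above (2.41 ± 0.68, adjusted p = 0.486).

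Across the 20 samples, the bright YP170 probes tracked each other more than they tracked vit-2. The vit-3 probe 13188 and the vit-4 probe 19335 correlated at r = 0.90, and the vit-4 probe 19335 and the vit-5 probe at 0.83, whereas vit-2 correlated at 0.64 with the vit-4 probe 19335, at 0.44 with both others and at -0.12 with vit-1. These are Pearson correlations over samples that share strains, arrays and scaling, and they are given as a description. Among all named genes, the profile closest to that of vit-2 was wrm-1 (r = 0.80, Spearman rho 0.62), followed by lgg-2 (0.78 and 0.87) and alg-1 (0.76 and 0.75). For vit-6 the closest were gpd-3 (0.89 and 0.90), snb-1 (0.88 and 0.88) and col-178 (0.87 and 0.85), and for vit-1 they were pcaf-1 (0.91 and 0.81), qns-1 (0.90 and 0.79) and sor-1 (0.88 and 0.83). After the group means were taken off, the Pearson values were 0.24, 0.33 and 0.21 for the 3 genes of vit-2, 0.71, 0.22 and 0.59 for those of vit-6, and 0.93, 0.89 and 0.92 for those of vit-1, in the order named.

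Genes known to act on vit transcription were also looked at, since several belong to the timing pathway through which the intestine switches on yolk production at adulthood. Of 12 tested, 3 rose and none fell with AIN-1 against N2 total RNA, and 2 rose and none fell with AIN-2::GFP against its own total RNA. The median log2 differences were 0.63 and 0.81, against 0.11 and -0.0025 over all probes, of which 6.1% rose and 5.65% fell in the first comparison and 2.79% and 2.72% in the second. With preimmune serum against N2 total RNA the list's median was 0.27, against -0.41 over all probes. For the AIN-1 IP over the preimmune IP it was 0.11 against 0.42. For GFP alone over its total RNA it was 0.23 against -0.22, and for the AIN-2::GFP IP over the GFP IP 0.73 against 0.16. mab-10, a cofactor of the adult-fate factor LIN-29, rose by 2.45 ± 0.38 with AIN-1 (adjusted p = 0.000936, held in 18 of 18 alternatives), by 1.20 with preimmune serum against the same N2 samples (adjusted p = 0.0463) and by 1.32 ± 0.33 with AIN-2::GFP (adjusted p = 0.0308, lost when any 1 of the 6 samples was left out, up to 0.146). hbl-1, a zinc-finger timing factor and microRNA target, rose by 2.48 ± 0.51 with AIN-1 (adjusted p = 0.00644, 0.147 with the cdc-42 split as a covariate, up to 0.096 without N2 replicate 1 or 2) and by 2.79 ± 0.46 with AIN-2::GFP (adjusted p = 0.00245). blmp-1, another zinc-finger factor, rose with AIN-1 by 2.12 ± 0.66 (adjusted p = 0.0473), a call that was lost in 10 of 18 alternatives, among them every omission of 1 sample (adjusted p up to 0.375) and sample-mean scaling (1.24, adjusted p = 0.131). Against the control IPs, hbl-1 was higher by 1.91 with AIN-1 (adjusted p = 0.0161) and by 2.45 with AIN-2::GFP (adjusted p = 0.00822), and mab-10 by 1.25 (adjusted p = 0.0279) and 1.38 (adjusted p = 0.0338).

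The intestinal GATA factor elt-2, which drives vit transcription, was not above the background limit in any AIN-2::GFP IP, GFP IP or transgenic total RNA sample, and lay at 0.03 ± 1.07 in the AIN-1 IP against N2 (adjusted p = 0.992). pqm-1, a zinc-finger factor of the intestine, was at 0.01 ± 1.11 (adjusted p = 0.998) and -0.08 ± 0.99 (adjusted p = 0.981) in the AIN-1 and AIN-2::GFP comparisons. ceh-60, a homeodomain activator of vit genes, and mab-3, which represses them in males, were above the background limit in 0 and 1 of 3 AIN-1 IPs and in 1 and 0 of 3 AIN-2::GFP IPs.

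Genes on the uptake and lipid side of yolk were looked at as well. By limma none of 13 yolk receptor and endocytosis genes passed in either comparison after adjustment. Of all probes, 11.8% passed with AIN-1 and 5.51% with AIN-2::GFP. The receptor gene rme-2, which oocytes express, was at -2.03 ± 1.03 with AIN-1 (adjusted p = 0.225) and -2.56 ± 0.91 with AIN-2::GFP (adjusted p = 0.121). Of 30 genes for lipoprotein assembly, lipid synthesis and fat storage, none rose and 4 fell with AIN-1, beside 5.65% of all probes that fell, and 1 rose and 1 fell with AIN-2::GFP, beside 2.79% and 2.72%. With preimmune serum none rose and 5 fell against N2 total RNA, where 3.89% of all probes rose and 9.17% fell. fat-2, a fatty acid desaturase gene, fell in both, by 3.36 ± 0.43 (adjusted p = 0.00039) and by 1.93 ± 0.39 (adjusted p = 0.00876, and 0.0512 without AIN-2::GFP total RNA replicate 2). fasn-1, the fatty acid synthase gene, rose by 2.18 ± 0.45 with AIN-2::GFP (adjusted p = 0.00989, up to 0.0574 without AIN-2::GFP IP replicate 1 or 2 or total RNA replicate 1). dsc-4, which encodes the lipid transfer protein that loads yolk particles, was at -0.30 ± 0.82 (adjusted p = 0.873) and -1.57 ± 0.73 (adjusted p = 0.248).

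Of intestine markers, the class to which vit genes belong, 30 were tested. Against N2 total RNA, 1 rose and 5 fell with AIN-1 (median -0.99), where 6.1% of all probes rose and 5.65% fell (median 0.11). Against the strain's own total RNA, none rose and 4 fell with AIN-2::GFP (median -0.88), where 2.79% of all probes rose and 2.72% fell (median -0.0025). With preimmune serum none rose and 6 fell against the same N2 samples (median -1.31), where 3.89% of all probes rose and 9.17% fell (median -0.41). The AIN-1 IP over the preimmune IP gave 1 higher and none lower (median 0.73), where 9.44% of all probes were higher and 2.36% lower (median 0.42). The intestinal protease genes cpl-1 and cpr-4 fell with AIN-1 by 3.52 ± 0.55 (adjusted p = 0.00107) and 4.78 ± 0.75 (adjusted p = 0.00115), and asp-1 and asp-5 fell with AIN-2::GFP by 2.96 ± 0.44 (adjusted p = 0.00127) and 3.13 ± 0.55 (adjusted p = 0.00377). These 4 calls held in all 18 alternatives of their comparison. The summed level of the 30 markers was 191 and 192 sample means in the N2 samples and 73.8 to 91.9 in the AIN-1 IPs, and 142 to 184 in AIN-2::GFP total RNA against 59.2 to 111 in the AIN-2::GFP IPs. vit-2 thus rose in the AIN-2::GFP IP while that list's summed level was lower there.

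Markers of other cell types moved too, and their part in the yolk protein values was not tested. With AIN-1, none rose and 6 fell of 35 germline and oocyte markers, 2 rose and 1 fell of 24 sperm markers, none rose and 2 fell of 12 body wall muscle markers, none rose and 1 fell of 8 neuron markers, and none rose and 3 fell of 10 cuticle markers. With AIN-2::GFP the counts were 1 and 1, 0 and 1, 0 and 0, 0 and 0, and 0 and 1 in the same order. Of all probes 6.1% rose and 5.65% fell with AIN-1, and 2.79% and 2.72% with AIN-2::GFP. With preimmune serum against N2 total RNA they were 0 and 3, 1 and 0, 0 and 5, 0 and 4, and 0 and 3, where 3.89% of all probes rose and 9.17% fell. The summed level of the sperm markers was 16.6 and 20.3 sample means in N2 total RNA but 61.1 to 138 and 100 to 178 in the transgenic strains, beside which the N2 level of the vit-4 probe 17399 stands. In whole-worm RNA, fewer yolk-producing adults and less RNA per cell cannot be told apart.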

How the data were processed

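Per the study's design text in the labels, RNA was extracted with Trizol, amplified once, labelled with Cy3 or Cy5 and hybridized to spotted arrays. The deposited values are linear spot intensity, background-subtracted and divided by each sample's mean, as the files' whole-number steps show (tolerance 0.001). Scanner, background method and genome build: not given in the sources used here. Values were quantile-normalized, set to a floor at percentile 10 of the positive values (0.0187 sample means, which 32.5% of values reached) and put on a log2 scale. Gene probes whose mean signal was above percentile 30 (12222 probes of 11812 genes) entered limma 3.58.1 (R 4.3.3), as 1 model of group and dye over all 20 samples, with Benjamini-Hochberg adjustment and a threshold of 0.05, two-sided. The p-values and SEs of limma rest on the spread within groups of 2 or 3 samples, pooled over all 7 groups and moderated across probes. They thus include the spread of the dim control IPs and are not the spread of the compared groups alone. The number of arrays limits the precision.

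A fold against a group below background is a bound, from the dimmest signal above background in each sample. The members, the 9 gene lists and the comparisons were chosen with earlier results of these data known. Every yolk protein probe is named, and for each list up to 3 past-threshold genes a direction and fixed key genes. Same-numbered samples deviated together (correlation 0.25, 0.20 and 0.38 for the AIN-1 and preimmune IPs, 0.52, 0.32 and 0.26 for both GFP pull-downs, 0.72, 0.59 and 0.77 for both transgenic total RNA groups), so these numbers pair samples. Between IPs and total RNA the correlations of same-numbered samples were weak (up to 0.11), though mostly the best match. These were not treated as pairs. The model was tested on simulated data. Alternatives covered scaling, floor, filter, dye, the cdc-42 split, blocks and the omission of samples. Figures were drawn with matplotlib 3.10.9.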

Additional observations from a re-analysis of the deposited data

How the results depend on the processing

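Over 1689 alternative values of the yolk protein probes, 1597 kept their side of the threshold, 57 fell below it, 35 rose past it and none reversed while called. In 58 the sign changed where neither value was past the threshold.

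The following counts are yolk protein probes past the threshold, of 9 tested. Where no share of all probes stands beside a count, here or in the next paragraph, the count describes the setting alone. With sample-mean scaling the count went from 7 to 4 for preimmune IP against N2 total RNA, from 0 to 1 for AIN-1 IP against preimmune IP, from 2 to 1 for AIN-2::GFP IP against its total RNA and from 1 to 0 for AIN-2::GFP IP against GFP IP. Of all probes 22%, 15.5%, 4.71% and 1.17% passed there, against 13.1%, 11.8%, 5.51% and 4.24% in the main fit. With cyclic loess the counts were 1, 1, 2 and 0 in that order. With the cdc-42 split as a covariate the counts were 3, 1, 3 and 1, and GFP IP against its total RNA went from 0 to 1. Fits of only the groups compared gave 0, 0, 4 and 0, with 7 in place of 4 for AIN-1 IP against N2 total RNA, 2 in place of 1 for N2 against the transgenic strains and 1 in place of 0 for the AIN-2 minus AIN-1 enrichment. A floor at percentile 20 gave 2 for AIN-2::GFP IP against GFP IP, and 1 in place of 0 for the AIN-2 minus GFP and the AIN-2 minus AIN-1 enrichments. The remaining alternatives of this paragraph were chosen after seeing the data. A median quantile target gave 1 for AIN-2::GFP IP against its total RNA and 0 against GFP IP. Leaving out the control IPs gave 4 for AIN-2::GFP IP against its total RNA (36% of all probes) and 2 for the AIN-2 minus AIN-1 enrichment (4.13%). The random replicate block gave 1 for AIN-1 IP against preimmune IP (20% of all probes), 1 for the AIN-2 minus GFP enrichment (0.81%) and 3 for AIN-2::GFP IP against GFP IP (8.49%).

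The fixed replicate block left 4 calls for AIN-1 IP against N2 total RNA, 2 for AIN-2::GFP IP against its total RNA and 5 of 7 for preimmune IP against N2 total RNA, and moved no count by over 1.5 times. Leaving out 1 sample gave 1 to 3 calls for AIN-1 IP against N2 total RNA (1 without N2 replicate 2, 2 without N2 replicate 1), 3 to 7 for preimmune IP against N2 total RNA (3 without either N2 replicate), 0 to 1 for AIN-1 IP against preimmune IP (1 without preimmune replicate 1), 1 to 2 for AIN-2::GFP IP against its total RNA, 1 to 2 for AIN-2::GFP IP against GFP IP (2 without replicate 1 of either) and 0 to 2 for GFP IP against its total RNA (2 without GFP IP replicate 1, both of probes below the background limit in the remaining GFP IPs). The study's rule took 2 yolk protein probe and protein pairs, 1 on quantile-normalized values (vit-2 with AIN-2) and 6 at a rank p under 0.05. Where no value shows a cause, the cause was not tested. The dim control IPs limit what can be read at low signal.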
